A study of Saccharomyces cerevisiae with 15 samples.

Results

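The transcript changes described here are those between steady-state growth on glutamine and a point 24 min after that glutamine had been used up, in Saccharomyces cerevisiae undergoing a nitrogen downshift (N-downshift). Members were the 3 arrays hybridised with RNA sampled at 24 min and the 3 arrays sampled at −10 min, so 6 of the 15 arrays of the series, and each 24 min sample came from the same bioreactor culture as a −10 min sample (cultures BY013, BY009 and BY010). All cultures were the wild-type strain YSBN6, growing in batch in a defined glucose minimal medium that held glutamine and proline as its nitrogen sources. Time was counted from the sample in which glutamine could no longer be detected in the broth, after which proline was the remaining nitrogen source, so that the −10 min cells were taking up glutamine and the 24 min cells had been without it for 24 min. The remaining arrays were 3 at 7 min from the same cultures, and single arrays of BY013 at −5, 3, 10, 14, 56 and 120 min. Every sample is labelled wild type, and steady state means balanced growth in batch and not a chemostat. The time −10 min is the nominal one of the labels, and per the study's records the steady-state sample of each culture was drawn somewhat earlier, by a margin that differed between cultures. RNA was taken from whole cultures and the arrays were scaled to each other, so fewer cells making a transcript, less of it per cell and a smaller share of total RNA cannot be told apart.

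Glutamine is a preferred nitrogen source of yeast, and proline a poor one. Cells that sense rich nitrogen keep the kinase complex TORC1 active, which drives the making of ribosomes through RNA polymerases I and III and through genes of ribosome assembly. When TORC1 and protein kinase A activity falls, the transcription factors Msn2 and Msn4 enter the nucleus and switch on genes for stress protection and storage carbohydrates, and autophagy begins to recycle cell content. Proline is taken up through permeases and oxidised to glutamate in mitochondria, which ties its use to respiration.

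Levels are normalised intensities on a linear scale, as deposited, and values of 3 cultures are given in the order BY013, BY009, BY010. Intensities of different genes were not compared, since probe sets differ in brightness. A change is the mean log2 intensity at 24 min minus that at −10 min, so −1 is a halving and 1 a doubling, and its standard error and adjusted p come from the limma fit over all 5498 probe sets that target a single S. cerevisiae gene (5449 genes). Genes are said to have risen or fallen where the adjusted p was under 0.05. An intensity of 68.1, which 95 percent of the probe sets made for another yeast species did not exceed, is called the background.

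Between −10 and 24 min most of the transcriptome passed this test. Of 5498 transcripts, 4517 (82.2%) changed, 2581 (46.9%) upward and 1936 (35.2%) downward. Most changes were small. The median over all transcripts was 0.09, its quartiles were −0.29 and 0.42, and 1136 called transcripts differed by less than 1.2-fold. A change of more than 2-fold was met by 943 transcripts (17.2%), 434 higher (7.89%) and 509 lower (9.26%). All 943 moved in 1 direction in each of the 3 cultures, with no overlap between the 3 arrays at 24 min and the 3 at −10 min. Since the 943 were called on these same arrays, this follows largely from how they were chosen. Of all 4517 called transcripts, 37 did not move in 1 direction in the 3 cultures. Large changes lay mostly on the falling side: 260 transcripts fell and 86 rose by more than 4-fold, 157 fell and 20 rose by more than 8-fold, and 68 fell and 1 rose by more than 16-fold. The typical SE of a change was 0.05, and the typical SD of a change between cultures was 0.08. Over all transcripts the changes measured in one culture correlated with those in another at r = 0.98 or 0.99 (3 pairs of cultures, across genes, which are not independent replicates).

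**Figure D1:**
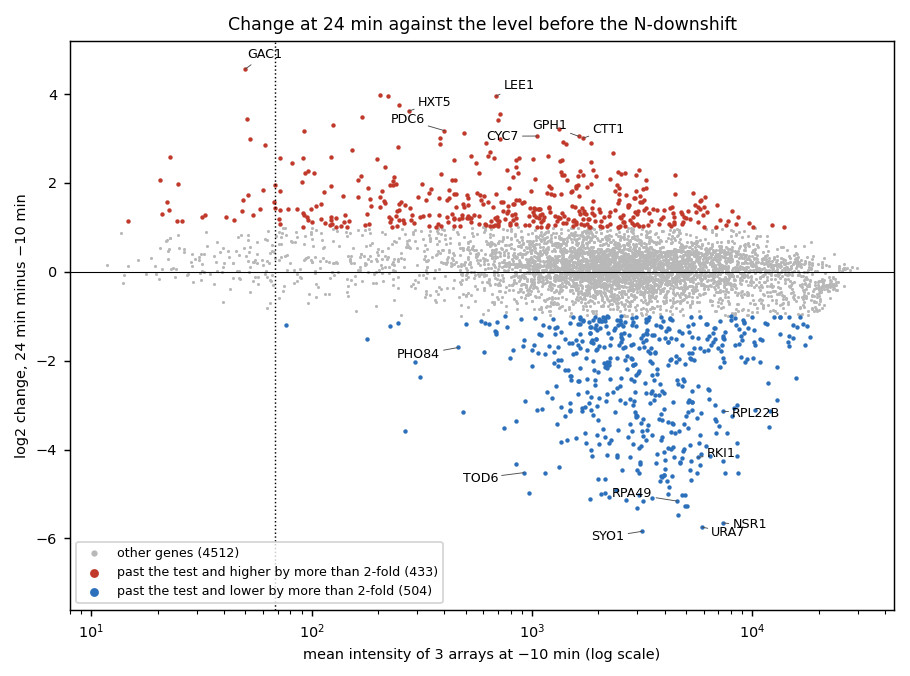
Mean intensity of the 3 arrays at −10 min (x axis, log scale) against the log2 change at 24 min (y axis) for 5449 genes, 1 point each; red and blue points passed the test and changed by more than 2-fold, and the dotted line marks the background of 68.1. Falls reach further from 0 than rises, and the transcripts with the largest falls lay well above background before the N-downshift.

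By measured values the 12 largest falls were those of SYO1, URA7, NSR1, DBP3, DRS1, PUF6, NOG1, RPA49, NOC2, RRS1, SSF1 and UTP13. Of these, SYO1 and SSF1 were at or below background on 2 of the 3 arrays at 24 min and DRS1 and RRS1 on 1, so their order rests in part on dim signal. Apart from URA7, a CTP synthase, and RPA49, a subunit of RNA polymerase I, these genes encode factors that fold, cut or carry the parts of a new ribosome. Among the 68 genes that fell by more than 16-fold, 52 belonged to the lists of small subunit and large subunit assembly factors, and among the 156 genes that fell by more than 8-fold, 102 did. Those lists held 66 and 80 of the 5449 genes, and were written with earlier results of these data known. The 12 largest rises were GAC1, SPG4, YNL194C, LEE1, YGR174W-A, HXT5, FMP16, MLS1, YMR206W, UGA4, MOH1 and YMR196W. Their known roles were more mixed: Gac1 directs a phosphatase to glycogen synthase, Hxt5 is a hexose transporter of slowly growing cells, Mls1 is the malate synthase of the glyoxylate cycle, Uga4 imports GABA, and several of the others have no described molecular function.

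To describe which functions these changes covered, 81 gene lists were used, which held 1903 of the 5449 genes. They covered 63.5 percent of the genes that fell by more than 2-fold (320 of 504) and 38.6 percent of those that rose by more than 2-fold (167 of 433). In this sample of functions the lowest medians were those of ribosome assembly and RNA polymerase I and the highest those of glycogen metabolism, the Msn2 and Msn4 stress genes and trehalose metabolism.

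**Figure D2:**
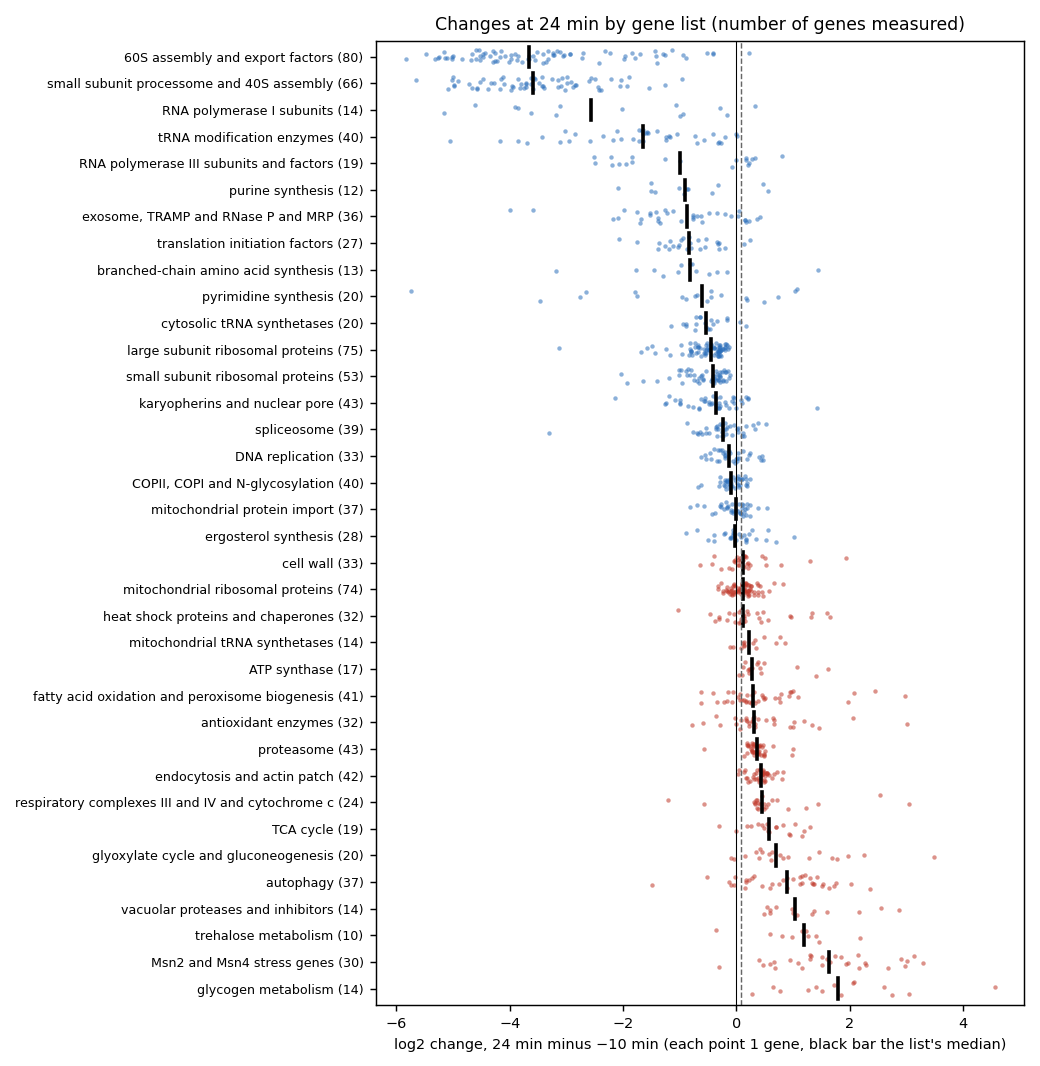
Log2 change at 24 min (x axis) of each gene in 36 of the 81 gene lists (rows, with the number of genes measured); each point is 1 gene, the black bar the median of its list, blue where that median is below 0 and red where above, and the dashed line the median over all genes (0.09). The assembly lists lie at medians of −3.67 and −3.58, and glycogen metabolism at 1.79.

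RNA polymerase I transcribes the large ribosomal RNA precursor, and its subunits fell further than those of any other polymerase measured. In the list of its subunits and initiation factors 12 of 14 transcripts fell and 10 did so by more than 2-fold, with a median change of −2.56 (35.2% of all transcripts fell, 9.26% by more than 2-fold). RPA49, which forms with Rpa34 a heterodimer on the enzyme, gave intensities of 4604, 4466 and 4578 at −10 min and 135, 146 and 105 at 24 min. No 24 min array came near a −10 min array, and the fall was 35.7-fold (−5.16 ± 0.11 (SE), adjusted p = 1e-12). RPA43, a subunit of the stalk that receives the initiation factor Rrn3, went from 3917, 4119.7 and 3629 at −10 min to 149, 177 and 153 at 24 min (−4.61 ± 0.08 (SE), adjusted p = 2.9e-13). RPA34 (−3.91), RPA135 (−3.86) and RPA190, the largest subunit (−3.63), fell as well. Of the factors that mark the promoter, RRN5 did not pass the test (−0.17 ± 0.08, adjusted p = 0.056), and RRN10 rose slightly (0.33 ± 0.08).

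The list of RNA polymerase III, which makes tRNA and 5S rRNA, held falls and rises. Its 5 largest falls were those of subunits of the enzyme itself. RET1, the second largest subunit, fell by 2.51, RPC31 by 2.50, RPC53 by 2.21, RPC17 by 2.20 and RPC82 by 2.07 on the log2 scale. The TFIIIC factor TFC4 did not pass the test (−0.01 ± 0.05, adjusted p = 0.87), while TFC7 and TFC8 rose by 0.33 and 0.27. MAF1, a repressor of polymerase III, rose on every culture's arrays. It gave 1929.5, 1905 and 1816 at −10 min and 3328, 3278 and 3255 at 24 min (0.80 ± 0.06 (SE), adjusted p = 3.7e-08). Over the list 10 of 19 fell and 7 rose, with a median of −0.99. Subunits that polymerases I and III share also fell (7 of 7, median −1.50), led by RPC19 (−2.88) and RPC40 (−2.63). The smallest fall among them was −0.88. A separate list of 7 RNA polymerase II subunits, which held none of these, had a median of −0.15 and a lowest value of −0.55. That list therefore does not cover subunits that polymerase II has in common with the other polymerases.

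Assembly of the small subunit starts on the RNA precursor with the U3-bearing processome. Every one of its 66 measured list members fell, 65 of them by more than 2-fold, and the list's median was −3.58, or −3.43, −3.69 and −3.64 in BY013, BY009 and BY010. NSR1, the yeast nucleolin, gave 7299.9, 7418 and 7406 at −10 min and 190.0, 136 and 122 at 24 min. That is a 50.3-fold fall (−5.65 ± 0.15 (SE), adjusted p = 6.2e-12). UTP13, a WD-repeat protein of the processome, went from 3436, 3417 and 3696 at −10 min to 121, 98.5 and 92.4 at 24 min (−5.09 ± 0.12 (SE), adjusted p = 2.4e-12). BFR2, another processome protein, fell by 5.03 on the log2 scale. The helicase HCA4 and the tRNA export and processome factor UTP8 fell too, but each was at or below background on 2 of the 3 arrays at 24 min. With those arrays set to background their changes were −4.85 and −4.85. RRP7 showed the smallest fall of the list (−0.96 ± 0.05, adjusted p = 2.7e-09).

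Factors of the large subunit followed the same course. In that list 79 of 80 fell, 74 by more than 2-fold, with a median of −3.67. SYO1, which carries the ribosomal proteins Rpl5 and Rpl11 into the nucleus together, gave 3061, 3205 and 3203 at −10 min and 72.4, 45.9 and 50.4 at 24 min, so that 2 of 3 arrays at 24 min were at or below background. With those set to background the fall was 45.4-fold, against 57.2-fold as measured (adjusted p = 1.7e-11). The helicase DBP3 went from 4551, 4755 and 4468 at −10 min to 117, 105 and 88.4 at 24 min (−5.48 ± 0.10 (SE), adjusted p = 4.1e-13). The nucleolar GTPase NOG1, which stays on the particle until late in assembly, went from 4997, 5078 and 4714 at −10 min to 152, 117 and 119.5 at 24 min (−5.26 ± 0.13 (SE), adjusted p = 2.5e-12). All 3 cultures had lost nearly all signal of these genes. The list's exception was REH1, a cytoplasmic zinc finger factor of late maturation, which rose by 0.22 (adjusted p = 0.0032, 0.062 without BY013), while its paralog REI1 fell from 1872, 1939 and 1825 at −10 min to 124, 88.9 and 106 at 24 min (−4.15 ± 0.15 (SE), adjusted p = 6.2e-11). SSF1 and SSF2 encode closely similar assembly factors, and SSF1 fell by 4.73 with its 2 dim arrays at 24 min set to background. SSF2 was at −0.41 ± 0.17 (adjusted p = 0.043), and at −0.16 (adjusted p = 0.49) without BY010.

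Nuclear RNA processing moved with assembly only in part. The exosome trims ribosomal RNA precursors and destroys aberrant nuclear RNA, with the TRAMP complex marking its targets. In the list of exosome, TRAMP, RNase P and RNase MRP genes 28 of 36 fell and 5 rose, or 2 without BY013 or BY010 (median −0.87). The TRAMP zinc knuckle protein AIR1 went from 1837, 1906 and 1831 at −10 min to 127, 108 and 114 at 24 min (−4.00 ± 0.11 (SE), adjusted p = 4.9e-12). Its paralog AIR2 was at −0.20 ± 0.05. MTR4, the TRAMP helicase, fell by 3.59, the core ring subunit MTR3 by 2.17 and the nuclear exonuclease RRP6 by 2.09, whereas XRN1, the main exonuclease of cytoplasmic mRNA decay, rose by 0.37 and SKI8, of the cytoplasmic Ski complex, by 0.41. Of the 39 spliceosome genes, PRP43 stood apart with −3.32 ± 0.07, and that helicase also acts in ribosome assembly. The next largest fall in that list was PRP2 at −0.87, and the list's median was −0.24.

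Genes that modify tRNA fell as a group: 37 of 40 passed the test downward and none upward (1 upward without BY009), 30 by more than 2-fold, with a median of −1.65. The guanosine methyltransferase gene TRM11 gave 2233, 2104 and 2393 at −10 min and 77.1, 67.7 and 58.0 at 24 min, with 2 of 3 arrays at 24 min at or below background. With those set to background the fall was 31.6-fold (adjusted p of the measured change = 2.8e-12). TRM1, which dimethylates a guanosine in nuclear and mitochondrial tRNA, fell by 4.17 on the log2 scale, and DUS3, a dihydrouridine synthase gene (−3.86), and GCD10, a subunit of a tRNA adenosine methyltransferase (−3.44), fell nearly as far. Enzymes that charge tRNA moved less. Cytosolic synthetases fell in 18 of 20 cases (median −0.54), led by MES1 for methionine at −1.15 ± 0.04, and GUS1, for glutamate, rose by 0.16 (adjusted p = 1.5e-05). Mitochondrial synthetases rose in 9 of 14 cases and fell in none (median 0.22), with MSF1 for phenylalanine the highest at 0.85 ± 0.09.

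Translation factors and ribosomal proteins fell by less than the factors that build ribosomes. Of 27 initiation factors 25 fell (median −0.84). TIF4631, one of the genes for the scaffold eIF4G, went from 4959.6, 5037 and 4806 at −10 min to 1147, 1241 and 1149 at 24 min (−2.07 ± 0.06 (SE), adjusted p = 5.9e-12), and its paralog TIF4632 rose by 0.25 (adjusted p = 0.00022). The eIF3 subunits NIP1, RPG1 and PRT1 fell by 1.76, 1.36 and 1.26. In the list of elongation and termination factors (median −0.58) the largest falls were DPH1 (−2.96) and DPH2 (−2.68), which start the diphthamide modification of elongation factor eEF2, followed by RLI1 (−1.90), an ATPase that splits ribosomes after termination. HEF3, a second gene for elongation factor eEF3 that is normally little used, rose from 408, 394 and 440.0 at −10 min to 975, 771 and 970.1 at 24 min (1.12 ± 0.10 (SE), adjusted p = 3.8e-07).

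Cytosolic ribosomal proteins fell, without exception among those measured in the main setting and in 65 and 44 cases after median centring, by −0.45 in the median for 75 genes of the large subunit and −0.41 for 53 of the small subunit. Only 7 and 7 of them passed 2-fold. Their median intensities at −10 min were 19034 and 19108, where the highest value of any tested probe set was 31675. Whether such bright signal shortens a measured fall was not tested. Yeast keeps most ribosomal proteins as gene pairs, and in several pairs one copy fell much further. RPL22B gave 7437, 7252 and 7379 at −10 min and 838, 864 and 807 at 24 min (−3.14 ± 0.07 (SE), adjusted p = 9.8e-13), and RPL22A fell by 0.71. RPS9A fell by 2.03 against 0.67 for RPS9B, RPS14B by 1.93 against 0.40 for RPS14A, and RPL12A by 1.59 against 0.51 for RPL12B. The 3 cultures did not overlap between the times for any of these 8 genes. At the other end, RPL15B was at −0.13 (adjusted p = 0.0046, 0.077 without BY010) and RPS23A at −0.11 (adjusted p = 0.0017), the latter read by a probe set that also matches other sequences. Chaperones that meet the nascent chain fell in 9 of 10 cases, with SSZ1 lowest at −0.73.

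Genes of transport through the nuclear pore mostly fell. Of 43 karyopherin and pore genes 32 fell (median −0.37), and KAP123, the main importer of ribosomal proteins before assembly, fell furthest, from 7079, 7201 and 7087 at −10 min to 1481, 1759.8 and 1587 at 24 min (−2.15 ± 0.05 (SE), adjusted p = 3e-12). LOS1, the tRNA exporter, fell by 1.19, and CRM1, the general exporter, rose by 0.20. The Ran GTPase is encoded by GSP1 and by GSP2, and GSP1 fell by 0.31 while GSP2 rose from 4277, 4279.5 and 4176 at −10 min to 11481, 11342 and 11528 at 24 min (1.43 ± 0.05 (SE), adjusted p = 3.2e-11).

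Nucleotide synthesis held one of the 12 largest falls. CTP is made from UTP, and URA7, the main CTP synthase gene, went from 5884, 6054 and 5821 at −10 min to 128, 117 and 89.9 at 24 min (−5.75 ± 0.12 (SE), adjusted p = 1e-12). Its paralog URA8 rose, from 4237, 4484 and 4087 at −10 min to 9009, 8450.0 and 8827 at 24 min (1.04 ± 0.04 (SE), adjusted p = 2.4e-10). Elsewhere in pyrimidine synthesis URA1, the dihydroorotate dehydrogenase, fell by 3.46, and the uracil and uridine permeases FUR4 and FUI1 fell by 2.76 and 2.65. The orotate transferase genes URA5 and URA10 moved in opposite directions (−0.45 and 1.07). In all, 14 of 20 pyrimidine genes fell and 6 rose, RNR3 of ribonucleotide reductase among the latter (0.74).

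In purine synthesis 10 of 12 genes fell (median −0.90), with BAS1, their transcriptional activator, lowest at −2.09 ± 0.09 and ADE8, ADE1 and ADE4 between −1.51 and −1.44. PHO2, the partner of Bas1, rose by 0.56, and of the enzymes of the last steps ADE17 fell by 0.88 while ADE16 rose by 0.47. Salvage genes lay at both extremes. AAH1, the adenine deaminase that is known to be shut off in quiescence, gave 4698, 4877 and 4506 at −10 min and 266, 227 and 238 at 24 min (−4.27 ± 0.09 (SE), adjusted p = 1.2e-12). IMD4, an IMP dehydrogenase of the guanine branch, went from 8284, 8116 and 8339 at −10 min to 964, 1023 and 957 at 24 min (−3.07 ± 0.05 (SE), adjusted p = 1.9e-13), and GUA1, the GMP synthase that follows it, fell by 2.15. GUD1, which breaks guanine down, did the reverse, with 381, 409 and 359.5 at −10 min and 3213, 2893 and 3214 at 24 min (3.02 ± 0.12 (SE), adjusted p = 2.1e-10). FCY21, a relative of the purine and cytosine permease, rose by 2.07.

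Ribose phosphate for these nucleotides comes from the pentose phosphate pathway, whose list had a median near 0 (−0.07) and members far to both sides. RKI1, the ribose phosphate isomerase, gave 5553, 5702 and 5673 at −10 min and 302, 335 and 300.4 at 24 min (−4.18 ± 0.08 (SE), adjusted p = 4e-13). PRS4 and PRS3, which make the activated sugar PRPP, fell by 2.45 and 1.97. Against these, a minor copy rose in each of 4 enzyme pairs. SOL4 rose from 1905, 1946 and 1694 at −10 min to 13887, 13867 and 13305 at 24 min and SOL3 fell by 0.56. NQM1 rose by 2.45, and TAL1 was at −0.07 (adjusted p = 0.027) and at 0.02 after median centring. TKL2 rose by 1.89 and TKL1 fell by 0.56, and GND2 rose by 1.61 and GND1 fell by 0.52.

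One-carbon metabolism fell in 17 of 21 genes (median −0.53), led by MIS1, the mitochondrial tetrahydrofolate enzyme (−1.93), DFR1, dihydrofolate reductase (−1.57), and GLY1, threonine aldolase (−1.53). AGX1, which makes glycine from glyoxylate, rose from 745, 802 and 675 at −10 min to 2309, 2112 and 2146 at 24 min (1.57 ± 0.08 (SE), adjusted p = 1.3e-09).

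Most lists of amino acid synthesis held more falls than rises. The branched-chain list had the lowest median of these (−0.82, 12 of 13 lower). LEU9, one of the isopropylmalate synthases that open the leucine branch, went from 5858, 5889 and 5811 at −10 min to 656, 714 and 581 at 24 min (−3.18 ± 0.07 (SE), adjusted p = 1.2e-12), against a fall of 0.34 for LEU4. OAC1, the mitochondrial carrier that exports isopropylmalate, fell by 1.78 and ILV5 by 1.46. The transaminases parted: the mitochondrial BAT1 fell by 1.02, and the cytosolic BAT2 rose from 4362, 4488 and 4120.0 at −10 min to 12018, 11648 and 11717 at 24 min (1.45 ± 0.05 (SE), adjusted p = 6.8e-11). Falls were counted in 6 of 7 histidine genes, 8 of 10 of aspartate, threonine and asparagine synthesis, 8 of 13 aromatic, 6 of 11 arginine and 4 of 10 lysine genes. In the same order 1, 2, 4, 4 and 5 genes rose. Over all transcripts 35.2% fell and 46.9% rose, and the lysine counts lay close to these shares. In these lists the lead genes were HOM3, aspartate kinase (−2.04), LYS4, homoaconitase (−1.62), HIS6 (−1.63), ARO2, chorismate synthase (−1.26), ARG8 (−1.27) and ARG80 (−2.04), the last a regulator of arginine genes. SAM4, which regenerates methionine from S-adenosylmethionine, fell by 1.95. ARO9, a transaminase that degrades aromatic amino acids, rose by 1.69. The medians of these lists lay between −0.39 for histidine and 0.10 for lysine.

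Mitochondrial functions rose moderately. In the TCA cycle 17 of 19 transcripts rose (46.9% of all transcripts rose, 7.89% by more than 2-fold), 4 by more than 2-fold, with a median of 0.58. Aconitase ACO1 gave 3025, 3106 and 2879.7 at −10 min and 7921, 6953 and 7202 at 24 min (1.29 ± 0.05 (SE), adjusted p = 3.2e-10). IDH2 rose by 1.19, the citrate synthase gene CIT1 by 1.16 and SDH1, of succinate dehydrogenase, by 1.03, and PYC2, a cytosolic pyruvate carboxylase, fell by 0.31. Respiratory chain genes rose in 22 of 24 cases (median 0.45), mostly by less than 2-fold. Larger changes were seen in pairs of isoforms. CYC7, the cytochrome c isoform of low oxygen and stress, went from 1075, 1009 and 1075 at −10 min to 8561, 9432 and 8294 at 24 min (3.06 ± 0.10 (SE), adjusted p = 4.7e-11), and CYC1, the main isoform, from 5195, 5045 and 5127 at −10 min to 2179.5, 2373 and 2087 at 24 min (−1.21 ± 0.04 (SE), adjusted p = 8.2e-11). Cytochrome c thus had a rising and a falling gene, each without overlap between the times. NDE2, an external NADH dehydrogenase, rose by 2.54 and NDE1 fell by 0.57, and COX5B and COX5A rose by 1.23 and 0.32.

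ATP synthase transcripts rose in 16 of 17 cases (median 0.27), and the 3 largest changes were those of proteins that inhibit its ATPase activity or steady that inhibition, STF2 (1.62 ± 0.05), STF1 (1.40 ± 0.05) and INH1 (1.08 ± 0.05). Among the carriers of the inner membrane CRC1, which brings in acyl carnitine, rose from 99.2, 107 and 101 at −10 min to 501, 448 and 483 at 24 min (2.22 ± 0.10 (SE), adjusted p = 4.3e-10). MPC3, the pyruvate carrier subunit used in respiration, rose by 1.76, against −0.17 for its fermentative counterpart MPC2, and ODC1, an oxodicarboxylate carrier, rose by 1.44 while ODC2 fell by 0.46. The machinery that makes mitochondrial proteins moved little: the 74 mitochondrial ribosomal proteins had a median of 0.12 (40 higher, or 25 without BY013, 11 lower, none by more than 2-fold), and the 37 import genes one of −0.01.

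The glyoxylate cycle and gluconeogenesis are repressed by glucose, which was the carbon source at both times. Their list had 18 of 20 genes higher and a median of 0.70. MDH2, the cytosolic malate dehydrogenase, went from 1361, 1398 and 1315 at −10 min to 6881, 6226 and 6362 at 24 min (2.26 ± 0.10 (SE), adjusted p = 7.2e-10). CAT8, the activator of these genes, rose by 1.78, PCK1 by 1.69 and ATO2, a putative ammonium exporter, by 1.97. In the list of fatty acid oxidation and peroxisomes 26 of 41 rose (median 0.29). POT1, the thiolase, was at or below background on all 3 arrays at −10 min and was at least 6.08-fold higher at 24 min (45.8, 52.2 and 59.9 at −10 min and 485, 357 and 409.6 at 24 min). PEX18, a receptor that helps bring the thiolase into peroxisomes, rose by 2.45, its paralog PEX21 fell by 0.63, and PXA2, of the fatty acyl importer, rose by 2.08.

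Of the storage carbohydrate lists, that of glycogen metabolism had the highest median of all lists. All 14 measured glycogen genes rose, 11 by more than 2-fold, with a median of 1.79 and culture medians of 1.80, 1.67 and 1.90. Both synthesis and breakdown were among them. GAC1 was below background on all 3 arrays at −10 min and gave 56.9, 53.1 and 39.9 at −10 min and 1229.9, 1139.6 and 1138 at 24 min, which makes it at least 17.2-fold higher (adjusted p = 5.2e-11). GPH1, glycogen phosphorylase, went from 1689, 1742 and 1461 at −10 min to 13954, 13212 and 13191 at 24 min (3.05 ± 0.09 (SE), adjusted p = 1.7e-11). The branching enzyme GLC3 rose by 2.07, the debranching enzyme GDB1 by 2.60, and GLC7, the phosphatase that Gac1 directs, by 0.27, the least of the list. In trehalose metabolism 9 of 10 rose (median 1.19), the synthase subunits TPS2 and TSL1 by 1.40 and 1.45 and the trehalases ATH1 and NTH1 by 1.27 and 1.23. PGM2, the main phosphoglucomutase, rose by 2.19, and the minor PGM1 fell by 0.36.

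**Figure D3:**
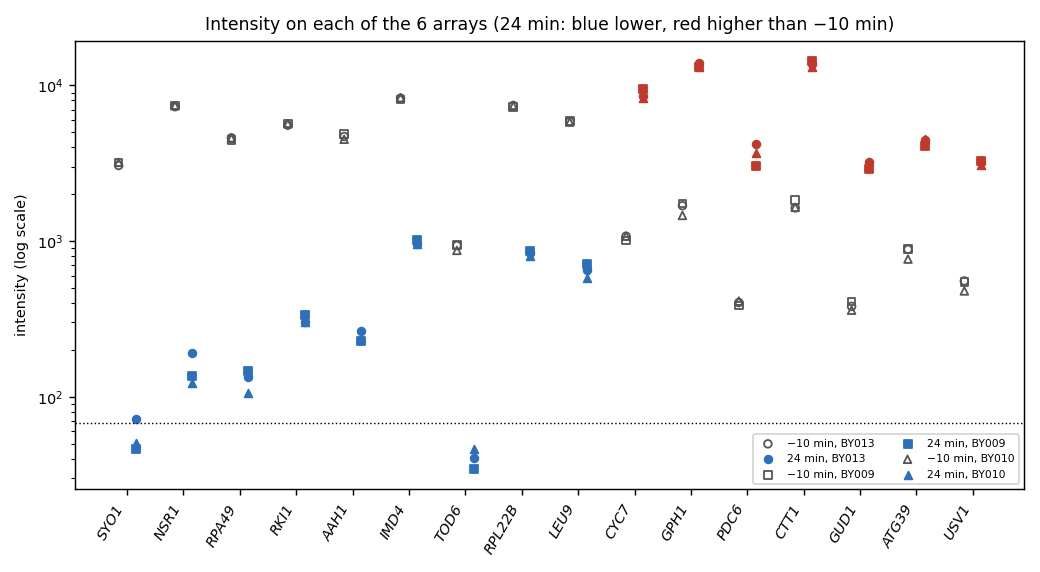
Normalised intensity (y axis, log scale) of 16 genes on each of the 6 arrays; open symbols are −10 min, filled symbols 24 min, and circles, squares and triangles are cultures BY013, BY009 and BY010; the dotted line is the background of 68.1. For every gene shown the 3 values at 24 min lie apart from the 3 at −10 min, and the cultures lie close together beside the change.

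Glycolytic genes themselves moved little (median 0.10), and larger changes were found in some minor isozymes. The hexokinase HXK1 rose from 6289, 6174 and 5806 at −10 min to 19644, 19953 and 19252 at 24 min (1.69 ± 0.07 (SE), adjusted p = 3.3e-10), and the glucokinases EMI2 and GLK1 by 1.32 and 1.24, while the glucose-induced HXK2 fell by 0.22. GPM2 rose by 1.97 against 0.08 for GPM1, and PYK2 by 0.98 against 0.06 for CDC19, the main pyruvate kinase gene. PDC6, the minor pyruvate decarboxylase, gave 403, 386 and 412 at −10 min and 4209, 3055 and 3680.1 at 24 min (3.18 ± 0.10 (SE), adjusted p = 2e-11), and PDC1 was at 0.06. Of the aldehyde dehydrogenases the stress-induced ALD2 and ALD3 rose by 2.47 and 2.29, and the mitochondrial ALD5 fell by 2.03. Of 24 genes of hexose transport and glucose sensing 11 rose and 6 fell, where 46.9% of all transcripts rose and 35.2% fell. The median of this list was 0.17, or 0.00 with dim arrays set to background. HXT5 went from 264, 267 and 295 at −10 min to 3553, 3243 and 3336 at 24 min (3.62 ± 0.10 (SE), adjusted p = 8e-12), the high-affinity HXT7 rose by 1.72, read by a probe set that also matches other sequences, and the low-affinity HXT1 and HXT3 fell by 1.09 and 0.60. Glycerol phosphatase GPP1 fell by 1.22 and its paralog GPP2 rose by 0.61.

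The list of Msn2 and Msn4 stress genes was made of genes known to respond to those factors under many stresses, and 29 of 30 rose, 23 by more than 2-fold (median 1.63, culture medians 1.80, 1.60 and 1.56). CTT1, cytosolic catalase, went from 1634, 1844 and 1648 at −10 min to 13778, 14324 and 13142 at 24 min (3.01 ± 0.09 (SE), adjusted p = 1.8e-11). MOH1 rose by 3.29, the reticulon gene RTN2 by 3.13, PHM7 by 2.98 and DCS2, an inhibitor of the cap-scavenging enzyme, by 2.91. SSA3, a chaperone of the Hsp70 family, fell by 0.31 and was the exception. In the wider list of heat shock proteins the small heat shock proteins HSP42 and HSP26 rose by 1.65 and 1.61 and SSA4 by 1.31, but 7 genes fell, YDJ1 by 1.02, and the median was 0.12. Antioxidant genes rose in 24 of 32 cases (median 0.31), with TSA2, PRX1 and GPX1 at 2.06, 1.33 and 1.45 behind CTT1. The glutaredoxins GRX3 and GRX4, which sense iron, fell by 0.79 and 0.35.

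Genes of protein breakdown rose together but by different amounts. The proteasome moved as a block: 42 of 43 genes rose, with a median of 0.36, yet the only one past 2-fold was NAS2, an assembly chaperone (1.00 ± 0.07), followed by ECM29 (0.99 ± 0.05), which tethers its parts. Autophagy genes rose further, 30 of 37 of them, 17 by more than 2-fold, with a median of 0.90. ATG39, a receptor for the nuclear envelope, went from 885, 889.9 and 766 at −10 min to 4437, 4092 and 4518 at 24 min (2.36 ± 0.09 (SE), adjusted p = 1.7e-10). ATG8, the ubiquitin-like protein that coats the membrane, gave 2763, 2615 and 2599 at −10 min and 8927, 8526 and 8933 at 24 min (1.73 ± 0.07 (SE), adjusted p = 2.5e-10). ATG29 and ATG14 rose by 2.02 and 1.75 and the kinase ATG1 by 1.63. ATG41 fell by 1.50 and ATG5 by 0.52.

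All 14 measured genes of vacuolar hydrolases and their inhibitors rose (median 1.04). Protease genes and the genes of their inhibitors were both among them: PRB1, the serine protease, rose by 1.60, while PAI3, which inhibits the aspartyl protease, rose by 2.87 and TFS1, which inhibits carboxypeptidase Y, by 2.17. AMS1, the mannosidase that reaches the vacuole by selective autophagy, went from 671, 713 and 628 at −10 min to 4203, 3735 and 3857 at 24 min (2.55 ± 0.07 (SE), adjusted p = 9.9e-12). The proton pump of the vacuole moved little (median 0.15, none past 2-fold). Endocytosis and actin patch genes rose in 40 of 42 cases with a median of 0.44 and none past 2-fold. Among arrestins and ubiquitin ligase adaptors the largest rises were FYV10 (1.58 ± 0.10) and VID30 (1.22 ± 0.07), both subunits of the GID ligase that removes gluconeogenic enzymes.

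Genes for nitrogen uptake moved in both directions. Of 27 permeases 15 rose and 11 fell, 7 and 7 by more than 2-fold. AGP1, a broad permease induced by outside amino acids, gave 6853, 5428 and 6931 at −10 min and 390.1, 328 and 357 at 24 min (−4.15 ± 0.10 (SE), adjusted p = 2.5e-12), and the glutamine permease GNP1 fell by 2.31. OPT2, an oligopeptide transporter, rose by 2.17, and DAL4, the allantoin permease, by 2.23. Of 11 genes of proline, arginine and GABA catabolism 8 rose and 3 fell (median 0.98), and all 10 of allantoin and urea degradation rose (median 0.92). In the first list GDH2, which releases ammonium from glutamate, rose by 1.89 and ASP1, cytosolic asparaginase, fell by 1.52.

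Regulators of growth themselves changed in several cases. TOD6, a repressor that recruits a deacetylase to ribosome biogenesis genes, gave 937, 946 and 871 at −10 min and 40.6, 34.4 and 46.0 at 24 min. All 3 arrays at 24 min were at or below background, which puts the fall at 13.5-fold or more (adjusted p = 1.4e-10), while its paralog DOT6 did not pass the test (−0.08 ± 0.03, adjusted p = 0.05). IFH1, the coactivator of ribosomal protein genes, fell from 1817, 1914 and 1849 at −10 min to 666, 608 and 644 at 24 min (−1.54 ± 0.07 (SE), adjusted p = 9.5e-10), and CRF1, its corepressor counterpart, rose by 1.06. The list of TORC1 and its regulators had a median of 0.01, with the Sit4 phosphatase subunit SAP185 at −2.09 ± 0.09 and its paralog SAP190 at −0.01 ± 0.04 (adjusted p = 0.76). The SEACIT genes IML1 and NPR2, which restrain TORC1, rose by 0.92 and 0.79.

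In the Ras and protein kinase A list the paralogs again moved apart. RAS1 went from 3132, 3342 and 3179 at −10 min to 996, 1001 and 999.6 at 24 min (−1.69 ± 0.04 (SE), adjusted p = 4.7e-12) and RAS2 rose by 0.57. TPK3 fell by 1.31 and TPK2 rose by 1.22, both catalytic subunits of the kinase, and BCY1, its inhibitory subunit, rose by 0.92. Of the stress regulators the zinc finger regulator USV1 rose from 554, 548 and 478 at −10 min to 3211, 3293 and 3068 at 24 min (2.60 ± 0.10 (SE), adjusted p = 2e-10), the repressor XBP1 by 1.89, and MSN4 by 1.83 against 0.27 for MSN2. SKN7 and ROX1 fell by 0.92 and 0.94. REG2, a regulatory subunit for Glc7 in glucose repression, rose by 1.57.

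To describe gene pairs that moved apart, 39 pairs of paralogs were set side by side. These pairs were picked after their values had been seen, so their number is no measure of how common such pairs are. In 21 of them one member passed the test upward and the other downward, and this number lay between 18 and 23 under the alternatives tried. In all 39 the same member was the higher one in each of the 3 cultures, and the smallest difference between members in any culture was 0.60 on the log2 scale. Because the pairs were picked with these values known, both results follow in part from that choice.

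**Figure D4:**
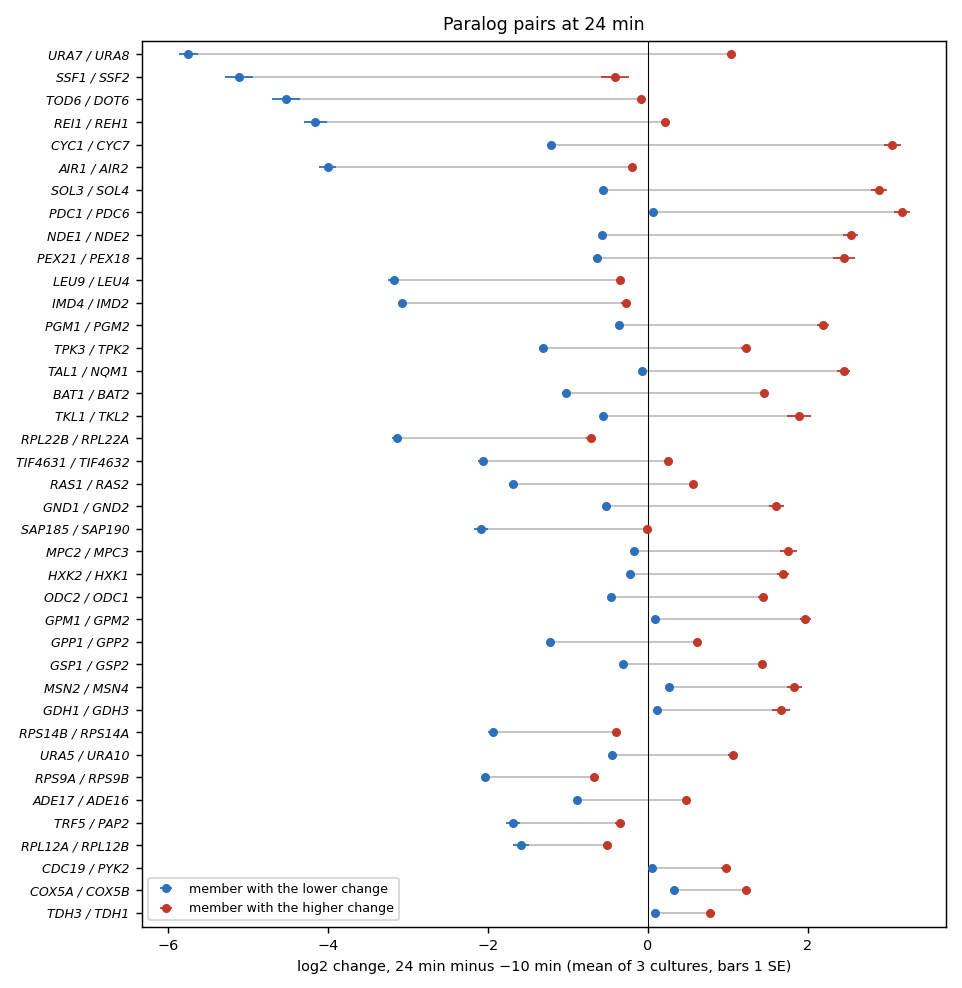
Log2 change at 24 min (x axis, mean of 3 cultures with 1 SE) of both members of 39 paralog pairs (rows), ordered by the difference between the members; blue is the member with the lower change and red the one with the higher. The widest gap is that of URA7 (−5.75) and URA8 (1.04), and the narrowest that of TDH3 (0.08) and TDH1 (0.78).

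Several functions of a growing cell stayed near the median of all genes. DNA replication genes had a median of −0.14 (17 of 33 lower, 8 higher), mitotic and exit genes −0.03, histones 0.17 and cell wall genes 0.11, and in the first 3 of these lists no gene passed 2-fold. The secretory list was at −0.09 and ergosterol synthesis at −0.02, where the transcription factor gene SUT1 fell by 0.89 and HES1, an oxysterol-binding protein, rose by 1.01. Lipid genes with larger changes were INM1, inositol monophosphatase (−2.05), CKI1, choline kinase (1.22), AUR1, which makes inositol phosphorylceramide (−1.19), and the ceramidases YPC1 (1.13) and YDC1 (1.07). In metal and phosphate metabolism the iron permease FTR1 fell by 1.50 (adjusted p = 1.3e-09) and the zinc permease ZRT2 by 1.31 (adjusted p = 1.4e-08). The fall of the phosphate permease PHO84, by 1.70, was less certain than these (adjusted p = 0.00016). PHM8, a nucleotide phosphatase of the phosphate regulon, rose by 2.35.

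Marker genes described the cells. Sums of intensity follow the brightest probe sets of a list, so they were set side by side only between times within the same list. All 7 a cell markers were above background on all 6 arrays, and their summed intensity was 68721 to 70739.7 at −10 min and 66476 to 68997 at 24 min. Of 4 alpha cell markers, 3 were above background on all 6 arrays, and the summed intensity of all 4 was 1742 to 1907 at −10 min and 2136 to 2353 at 24 min, while the pheromone gene MF(ALPHA)1 lay at or below background on 4 of 6. AGA2, the a-agglutinin subunit, fell by 0.99. Of 20 meiosis and sporulation genes 13 rose and 1 fell (median 0.36, or 0.27 with dim arrays set to background), and their sum went from 6345 to 6560 at −10 min to 8291 to 9093 at 24 min. Over all transcripts 46.9% rose. The 13 include DIT2 and SPO13, which were above background on 0 and 1 of the 6 arrays. HOP1 and DMC1, of meiotic recombination, rose by 1.41 and 1.37, from 80.4, 80.5 and 95.8 to 251, 209.9 and 223 for HOP1, whereas IME1, the master regulator of entry, was at −0.40 and SPS2 and DIT2 stayed at or below background on all 6 arrays.

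Genes known only by their systematic name made up 18.9 percent of the genes that rose by more than 2-fold (82 of 433), 6.94 percent of those that fell by more than 2-fold (35 of 504) and 9.16 percent of all genes (499 of 5449). Among the 12 largest rises 4 had such names. YNL194C, an integral membrane protein of the cell cortex, gave 246, 211 and 209 at −10 min and 3517, 3645 and 3229 at 24 min (3.97 ± 0.14 (SE), adjusted p = 6.4e-11). YMR206W was at or below background on all 3 arrays at −10 min and at least 8.01-fold higher at 24 min (569, 545 and 523). YMR196W gave 1332, 1439 and 1205 at −10 min and 12691, 11905 and 12258 at 24 min (3.22 ± 0.10 (SE), adjusted p = 2.3e-11). Of the 68 genes that fell by more than 16-fold as measured, 6 lay outside all lists and were picked after their values had been seen: MRD1 (−4.13 ± 0.14), which acts in pre-rRNA processing, KRE33 (−4.06 ± 0.09), an acetyltransferase of ribosomal RNA, PWP1 (−4.70 ± 0.09), BMT5, a methyltransferase of large subunit RNA (at least 16.9-fold lower), JJJ3, a diphthamide synthesis protein (at least 12.4-fold lower), and MAE1, the mitochondrial malic enzyme, which went from 8404, 8796 and 8242 at −10 min to 492, 475 and 480.0 at 24 min (−4.14 ± 0.06 (SE), adjusted p = 8.8e-14).

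The state at 24 min was set against the first replicated time after depletion, 7 min, at which 39.4% of transcripts differed from −10 min. Both comparisons share the −10 min arrays, so their own values are given side by side and the difference was tested as 24 against 7 min, which called 76.8% of transcripts. Of the 943 transcripts past 2-fold at 24 min, 941 also differed between 7 and 24 min, and their median size of change was 0.47 at 7 min and 1.64 at 24 min. These 943 were chosen on their 24 min values, so both results follow in part from that choice. By list, the medians at 7 and 24 min were −0.74 and −3.67 for large subunit assembly, −0.57 and −2.56 for RNA polymerase I, and 0.67 and 1.79 for glycogen metabolism. Ribosomal proteins of the large subunit were at −0.02 and −0.45, and all 75 differed between the times. Autophagy genes were at 0.18 and 0.90, with 33 of 37 differing between the times.

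Later times were sampled only in BY013, on 1 array each, and carry no test. Relative to its own −10 min array, the large subunit assembly list of BY013 stood at −0.40, −1.48, −2.44, −3.54, −2.62 and −2.17 on the arrays of 3, 10, 14, 24, 56 and 120 min, so that 24 min was the lowest of the sampled times. Ribosomal proteins of the large subunit were lower later, at −0.57, −1.34 and −1.34 at 24, 56 and 120 min. The glycogen list held its level at 1.80, 1.69 and 1.66.

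**Figure D5:**
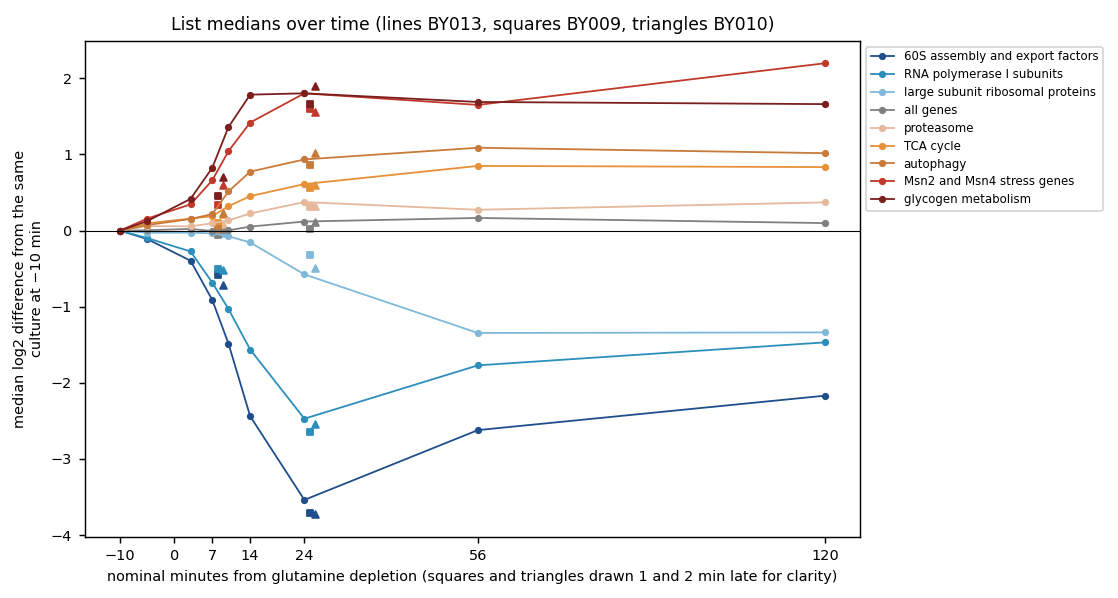
Median log2 difference from the −10 min array of the same culture (y axis) for 8 gene lists and for all genes against minutes from glutamine depletion (x axis, nominal times of the labels); lines join the 9 arrays of BY013, and squares and triangles are BY009 and BY010 at 7 and 24 min. The 2 growth lists of RNA polymerase I and large subunit assembly are lowest at 24 min, and large subunit ribosomal proteins are lower at 56 than at 24 min.

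Cultures differed more for a few genes. BY013, BY009 and BY010 had 0.12, 0.03 and 0.11 as their median change over all genes, and 473, 399 and 456 transcripts rose by more than 2-fold within them while 493, 525 and 508 fell. Among genes above background on all 6 arrays the widest range between cultures was that of YBL005W-A, a Ty element gene, with changes of 0.19, −1.06 and 0.75. YEL076C-A, YBL111C, SLD7 and NUT2 were among the 6 widest too, and in each of these 5 the change in BY009 was the lowest of the 3 cultures. YBL111C, whose probe set also matches other sequences, gave 3349, 4091 and 2388 at −10 min and 5802, 3425 and 5298 at 24 min, so its arrays overlapped between the times although it passed the test (adjusted p = 0.039, 0.39 without BY010).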

How the data were processed

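Total RNA of 15 samples was hybridised to Affymetrix yeast arrays, and the deposited table gives 1 normalised intensity on a linear scale per probe set and array. The authors used the affy package (R 2.10.0 per the labels): RMA served for background correction alone, perfect-match probes were normalised by QSPLINE over the 15 arrays and summarised by the Li and Wong model, so an overall rise or fall in RNA per cell is not kept. Of 10928 probe sets, 5498 are annotated to 1 S. cerevisiae gene and were tested, and 1746 made for another yeast gave the background. The intensities were taken to log2 and fitted in limma 3.58.1 (R 4.3.3) with 1 mean per sampled time over 15 arrays and a trend of the spread (6 residual degrees of freedom), which assumes one spread for all times, with Benjamini-Hochberg adjustment over 5498 probe sets. The 3 cultures are independent bioreactor runs, and their number limits the precision. The brightest probe set stood for a gene.

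The culture pairs the samples by design. Deviations from the group means of −10 and 24 min arrays of the same culture correlated at −0.01, −0.27 and −0.06, and the fit without a culture block was kept as the main one. A change of a gene at or below 68.1 on all 3 arrays of a time is given as a bound, with those arrays set to that value; where 2 were, the value computed the same way is given and is no bound. Alternatives were the culture as a fixed or random block, quantile normalisation, centring, an offset of 50, filters, 6 arrays only, no trend, a test against 2-fold and leaving out each culture. Genes were named by a rule: the 12 largest rises and falls, per list up to 5 largest changes, up to 3 against the list's direction and the smallest change, and the 6 with the widest range between cultures. Paralogs of these were added. The comparison, lists and rule were chosen with earlier results of these data known. One listed name was dropped because it matched another gene, and 34 listed names had no probe set. DIM2, ART1 and FEN1, as written in the lists, matched no single gene and were left out. Promoter motifs were not analysed here. The fit was tested on simulated data.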

Additional observations from a re-analysis of the deposited data

Results flagged for a closer look

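Some transcripts changed direction between the replicated times. A total of 11 were lower at 7 min and higher at 24 min, and 6 were higher at 7 min and lower at 24 min, each with the 24 against 7 min difference past the test. The widest was YOR338W, at −0.41 at 7 min and 1.07 at 24 min, and the ammonium permease gene MEP1 was at 0.55 and −0.31; both were picked after their values had been seen.

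Signal also lay outside the tested probe sets. Of 3683 probe sets with no listed gene, 432 were above background on all 6 arrays, and of those 25 were higher and 9 lower by more than 2-fold in all 3 cultures. Of 1746 probe sets made for another yeast, 29 were above background on all 6 arrays, and 1 of them was lower by more than 2-fold in all 3 cultures.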

How the results depend on the processing

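Counts of transcripts passing the test kept within 1.5 times their main value under the 14 alternatives tried. Higher transcripts numbered 2532 to 2875 against 2581 and lower ones 1554 to 1948 against 1936 with all cultures in, among them the culture as a fixed term (replicate block, 2549 and 1893), and 2281 to 2758 and 1803 to 1837 when each culture was left out. The replicate block left the numbers past 2-fold at 434 and 509 and ended no call of a gene named in the report. Past 2-fold, counts ran from 373 to 505 higher and 472 to 512 lower, and a test against a 2-fold change called 298 and 438. Higher calls were 57.1 percent of all calls, and between 55.4 and 64.9 percent under the alternatives, the latter after median centring, which moved all changes up by 0.09. The count for 24 against 7 min ran from 3683 without BY010 to 4401 against 4225, over alternatives chosen after seeing the data, as was centring on the S. cerevisiae probe sets.

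No list with a median beyond 0.3 in size (41 lists) changed sign under any alternative, and 5 lists near 0 did. Signs that turned belonged to genes near 0. Quantile normalisation gave CDC19 −0.048, GPM1 −0.046, PDC1 −0.046, RRN5 0.14, TFC4 0.026 and YBL005W-A 0.25. Median centring gave DOT6 0.006, SAP190 0.073, TAL1 0.016, TFC4 0.077 and YBL005W-A 0.043. Centring on the S. cerevisiae probe sets gave SAP190 0.0016 and TFC4 0.0048. With each culture left out in turn the change ran from −0.038 to 0.038 for SAP190, from −0.044 to 0.046 for TFC4 and from −0.44 to 0.47 for YBL005W-A. The cause was not tested. With the 99th percentile as background (101.6) the bound for GAC1 was 11.5-fold, for TOD6 9.03-fold and for POT1 4.07-fold. Having 3 arrays per time, 1 array at most other times and signal near background limits the precision. The planned share of promoters with a motif was not run, since no promoter sequence was used here.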
